A study of Mus musculus with 9 samples.

Results

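Crabp1 and Slc14a1 fibroblasts without Hoxd13 are a group of fibroblasts in mouse embryonic fibroblast (MEF) cultures undergoing reprogramming to neurons. They were chosen in 3 steps by measured unique molecular identifiers (UMI), the tags that count single mRNA molecules. A barcode counted as a cell with 3000 UMI or more and no more than 20% of them mitochondrial. A cell was taken as a fibroblast when Col1a1, Col1a2 and Col3a1 together had at least 60 UMI per 10000 and the macrophage genes Tyrobp, Fcer1g, Ctss and Csf1r together had under 10 per 10000. A fibroblast was then a member when at least 3 of the 5 genes Slc14a1, Crabp1, Mecom, Tnn and Cxcl5 had a UMI and Hoxd13 had none. The rule found 3365 members among 52224 fibroblasts and 81999 cells, or 6.44% of fibroblasts and 4.10% of cells. Since the choice used the UMI of these cells, all differences between members and other fibroblasts are given as descriptions, with no test.

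The MEFs were transduced with lentiviruses for doxycycline-inducible transcription factors, Brn2 (Pou3f2) among them, that turn fibroblasts into induced neurons. The study compared cultures labelled WT, Per1-/- and Per2-/- on days 4, 7 and 10, counted from the change to doxycycline medium, with 1 droplet 3′ library per genotype and day. Per1 and Per2 encode repressors of the circadian clock, and the alleles of the mutant mice were Per1tm1Drw and Per2tm1Drw. All cultures received the reprogramming viruses and a transactivator virus. MEFs came from mid-gestation embryos without head and heart, cells of 4 embryos were pooled per dish, sex was not determined, and the cells were used at passage 1. The labels do not say whether libraries of 1 genotype came from separate cultures or embryos, so the p-values given here measure the spread between these libraries only.

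Hox genes encode transcription factors whose combinations record where along the trunk and limbs a cell arose, and the last genes of the HoxA and HoxD clusters, among them Hoxa13 and Hoxd13, are used at the outer end of the limb and in the genital tubercle. Cultured fibroblasts keep much of this positional code. Of the genes that define the members, Crabp1 encodes a cytoplasmic protein that binds retinoic acid, Slc14a1 a urea transporter, Mecom a zinc finger transcription factor, Tnn a tenascin of the extracellular matrix and Cxcl5 a chemokine that attracts neutrophils.

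Promoter sequence is shown for the genes that the description below turns on. Crabp1 was the marker found in most members, and Hoxd13 was the gene that excluded cells. Hoxa13 was among the genes used to split the members below, and Foxd1 differed between the parts of that split. Each line gives the 250 bases before the start of the gene in RefSeq (GRCm38.p6), read on the strand of the gene. Capitals mark 3 textbook promoter motifs on either strand: the TATA box as TATAAA, the box named CCAAT, and the GC box as GGGCGG. The windows are chr9:54764498-54764747 (plus strand) for Crabp1, chr13:98353995-98354244 (plus) for Foxd1, chr6:52260881-52261130 (minus) for Hoxa13 and chr2:74667975-74668224 (plus) for Hoxd13.

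Crabp1: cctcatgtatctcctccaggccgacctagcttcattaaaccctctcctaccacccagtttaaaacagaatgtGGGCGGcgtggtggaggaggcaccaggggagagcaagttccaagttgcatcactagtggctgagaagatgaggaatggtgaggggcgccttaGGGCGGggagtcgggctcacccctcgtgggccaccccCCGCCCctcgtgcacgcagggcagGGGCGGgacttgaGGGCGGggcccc
Foxd1: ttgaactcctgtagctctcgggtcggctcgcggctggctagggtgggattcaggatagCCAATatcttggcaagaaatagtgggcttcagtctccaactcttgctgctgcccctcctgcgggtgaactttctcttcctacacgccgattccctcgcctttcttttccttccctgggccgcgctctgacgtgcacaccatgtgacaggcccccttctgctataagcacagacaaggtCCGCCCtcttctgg
Hoxa13: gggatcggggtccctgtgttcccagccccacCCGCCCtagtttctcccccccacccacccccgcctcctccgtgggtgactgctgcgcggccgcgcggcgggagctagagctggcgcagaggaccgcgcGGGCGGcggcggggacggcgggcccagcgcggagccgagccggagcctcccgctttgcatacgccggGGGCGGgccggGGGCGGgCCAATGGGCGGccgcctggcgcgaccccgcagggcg
Hoxd13: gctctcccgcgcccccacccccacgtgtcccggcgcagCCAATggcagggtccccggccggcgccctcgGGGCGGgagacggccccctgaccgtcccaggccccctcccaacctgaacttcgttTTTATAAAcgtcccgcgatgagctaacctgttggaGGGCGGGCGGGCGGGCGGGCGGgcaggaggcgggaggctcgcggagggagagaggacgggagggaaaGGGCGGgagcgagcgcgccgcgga

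The window of Hoxd13 held GGGCGG 7 times, counting copies that overlap each other, with CCAAT 1 time and TATAAA 2 times as an overlapping pair on the 2 strands. Hoxa13 held GGGCGG 5 times and CCAAT 1 time, directly beside a GGGCGG. Crabp1 held GGGCGG 5 times and neither of the other motifs, and Foxd1 held GGGCGG and CCAAT 1 time each. Among 32851 promoters, the share with at least 1 copy in such a window was 12.4% for TATAAA, 33.8% for CCAAT and 32.7% for GGGCGG. The GC content was 80% for Hoxa13, 74.4% for Hoxd13, 63.6% for Crabp1 and 57.2% for Foxd1, against a median of 52.4%. The CpG number was 35, 31, 12 and 12 in that order, against a median of 6. A motif match is a description of letters and not a site in use.

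The libraries held 126625215 to 353198559 UMI, and 55.4% to 94.5% of their barcodes were kept, the lowest share being that of WT on day 10. Members made up 241 to 633 cells and 4146175 to 24542461 UMI per library, with a median of 15061 to 33475 UMI per cell. Other fibroblasts had medians of 14009.5 to 32197 UMI per cell. Pairs of libraries shared 11 to 38 barcodes, at most 0.424% of the smaller library. Cells with the highest doublet scores made up 6.73% to 25.7% of members and 2.43% to 19.6% of other fibroblasts, with the higher share in members in 8 of 9 libraries.

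The Per1-/- libraries of days 7 and 10 stood apart from the others. Hoxd13 had a UMI in 3.42% and 4.69% of their fibroblasts, against 28.8% to 58.8% in the other 7 libraries. In these 2 libraries Y-linked UMI without Xist marked 97.0% and 96.7% of members and no member had Xist alone, while Y-linked UMI without Xist marked 8.30% to 47.7% of members elsewhere. They hold 543 of the 3365 members, and the share differences, the counts of genes higher or lower in all libraries and the counts of calls over all genes are given also without them. On these days the Per1-/- genotype and this make-up of the libraries cannot be told apart, in members or in other fibroblasts. Every Per1-/- contrast made without them rests on the day 4 library of Per1-/- alone.

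Members were found in every library, and their share of fibroblasts was highest on day 4. The share was 9.56% in WT, 9.68% in Per1-/- and 10.6% in Per2-/- on day 4. On day 7 it was 6.87%, 7.99% and 3.92%, and on day 10 it was 4.90%, 4.08% and 3.20%, in the same order. The exact 95% Clopper-Pearson intervals, which cover counting error only, ran from 9.77-11.5% for the highest share, Per2-/- on day 4, to 2.82-3.62% for the lowest, Per2-/- on day 10. All libraries of day 4 lay above all those of days 7 and 10, while days 7 and 10 overlapped. The mean share by day was 9.95% ± 0.573, 6.26% ± 2.10 and 4.06% ± 0.851 (SD, n = 3 genotypes). With cells of at least 10000 UMI thinned to that number the means were 10.6% ± 1.37, 5.49% ± 2.49 and 4.07% ± 1.91. This left out 2227 of 4919 fibroblasts of WT on day 10 and 34 to 331 in each other library. Thinned shares of Per1-/- were 9.47%, 3.37% and 2.50% on days 4, 7 and 10, the lowest of the 3 genotypes on each day, while on day 7 its share without thinning was the highest. No test was made over days, because Slc14a1, a gene of the rule, fell from day 4 to day 7 in the sum of all fibroblasts (log2 fold change -1.95 ± 0.30 SE, adjusted p = 0.0359, edgeR quasi-likelihood test with Benjamini-Hochberg adjustment).

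No genotype difference in the share could pass the test, whatever its size. The mean over days was 7.11% ± 2.34 in WT, 7.25% ± 2.87 in Per1-/- and 5.91% ± 4.08 in Per2-/- (SD, n = 3 days). Against the mean of the other 2 genotypes, WT differed by 0.531 percentage points, Per1-/- by 0.740 and Per2-/- by -1.27. Two-sided exact permutation of genotypes within days gave p = 0.704, 0.556 and 0.222 (adjusted p = 0.704, 0.704 and 0.667 over the 3 tests), where the smallest p that 216 arrangements allow is 0.037. After adjustment over 3 tests, no arrangement could bring a p under 0.05, so no conclusion is drawn from this test. The sign of the Per1-/- and Per2-/- differences turned with thinning to 10000 UMI, to -2.43 and 0.164 percentage points. Without 1 library in turn, the WT difference reached -0.147 without Per2-/- on day 7 and the Per1-/- difference -0.188 without Per1-/- on day 7. Without the Per1-/- libraries of days 7 and 10 together the differences were 1.36 for WT, -0.407 for Per1-/-, which then rests on day 4 alone, and -1.22 for Per2-/-.

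**Figure D1:**
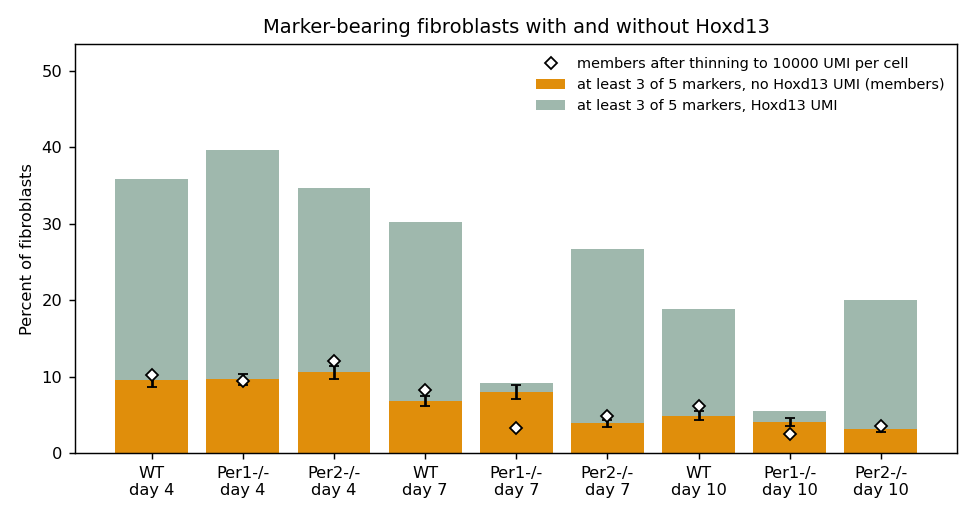
Share of fibroblasts that are members (y axis, percent) in each of the 9 libraries (x axis). The lower part of each bar is this share without thinning, with its exact 95% interval for counting error. The upper part is the share of marker-bearing fibroblasts with Hoxd13. Diamonds give the share of members after thinning. Without thinning, members in the 3 libraries of day 4 lie between 9.56% and 10.6%, above all others, and Per2-/- on day 10 is lowest at 3.20%.

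The share depends on Hoxd13 detection as well as on the markers. Fibroblasts with at least 3 markers, whatever their Hoxd13, numbered 13033, and 25.8% of them had no Hoxd13 UMI. That fraction was 14.6% to 30.6% in 7 libraries, but 86.6% and 72.8% in the Per1-/- libraries of days 7 and 10. Marker-bearing fibroblasts with Hoxd13 had a median of 2 to 4 Hoxd13 UMI, and 14.3% to 32.6% of them had exactly 1. When these cells were thinned to 10000 UMI, 22.5% to 34.8% lost every Hoxd13 UMI, and 10.1% to 21.2% kept at least 3 markers and would have counted as members. A member is therefore a cell in which Hoxd13 was not detected at its depth, not a cell shown to lack it.

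The label names Crabp1 and Slc14a1, and the 2 genes were not found equally often. A Crabp1 UMI was present in 97.6% to 99.8% of members and a Mecom UMI in 92.7% to 99.2%. Slc14a1 had a UMI in 36.6% to 62.1%, Cxcl5 in 33.5% to 68.0% and Tnn in 7.07% to 34.6%. The commonest combination was Crabp1, Mecom and Cxcl5 with 1310 members (38.9%), so the largest group of members carried no Slc14a1 UMI. Slc14a1, Crabp1 and Mecom followed with 1012 members (30.1%), then Crabp1, Mecom and Tnn with 322 (9.57%), and 53 members (1.58%) had all 5 markers.

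Crabp1 and Mecom were also common outside the members. Marker-bearing fibroblasts with Hoxd13 carried all 5 marker genes at higher CPM than members, by the median over the 9 libraries. The median log2 ratios of members to those cells were -0.41 for Crabp1, -0.63 for Mecom, -0.51 for Slc14a1, -0.26 for Cxcl5 and -0.77 for Tnn. In fibroblasts with fewer than 3 markers and no Hoxd13, 58.9% to 87.7% of cells had a Crabp1 UMI and 19.5% to 49.8% a Mecom UMI. The same shares were 0.837% to 6.96% for Slc14a1, 2.09% to 8.87% for Cxcl5 and 0.236% to 3.65% for Tnn. Cells of the macrophage gate (at least 10 UMI per 10000 of the macrophage genes, under 60 of the collagens), which should lack Crabp1 and Hoxd13, had a Crabp1 UMI in 9.31% to 54.4%, a Mecom UMI in 1.92% to 10.2%, an Slc14a1 UMI in 3.30% to 7.51%, a Cxcl5 UMI in 0.204% to 6.11%, a Tnn UMI in 0.0679% to 3.33% and a Hoxd13 UMI in 0.464% to 8.35%, at median depths of 14442 to 36726 UMI. The Slc14a1, Cxcl5 and Tnn shares of fibroblasts with fewer than 3 markers overlapped those of the macrophage gate.

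**Figure D2:**
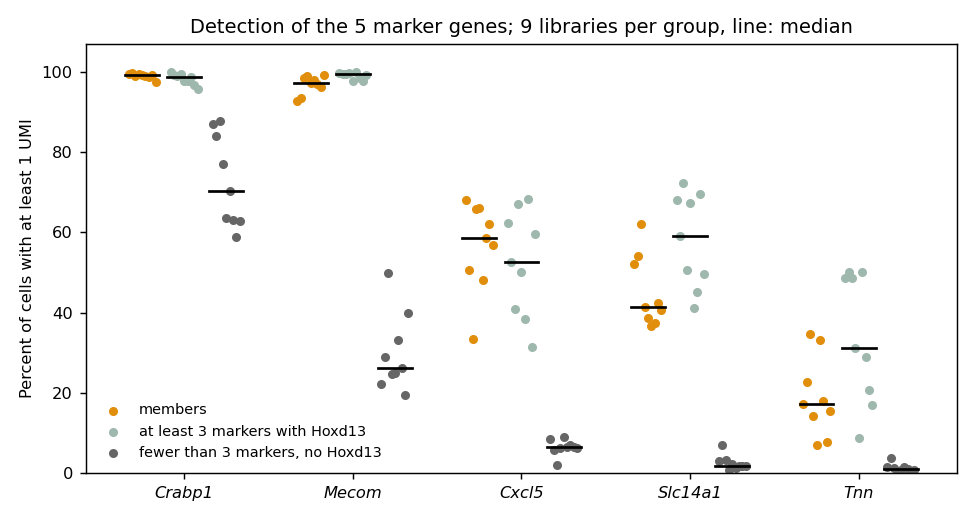
Percent of cells with a UMI (y axis) of each of the 5 marker genes (x axis) in members, in marker-bearing fibroblasts with Hoxd13 and in fibroblasts with neither, 1 point per library. Crabp1 is found in 97.6% to 99.8% of members and Mecom in 92.7% to 99.2%, while Slc14a1 is found in 36.6% to 62.1%.

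The threshold falls inside a continuous range. Per library, 219 to 508 members had exactly 3 markers, with a median of 10 to 26 marker UMI per cell. Just outside, 814 to 1481 fibroblasts without Hoxd13 had 2 markers, with a median of 5 to 19 marker UMI. Summed over the members of a library, Crabp1 stood at 524 to 1268 counts per 1000000 UMI (CPM) and Mecom at 108 to 266 CPM. Cxcl5 stood at 40.04 to 126 CPM, Slc14a1 at 26.2 to 84.9 CPM and Tnn at 4.48 to 51.1 CPM. The values of Slc14a1 were 61.5, 47.0 and 84.9 CPM on day 4, then 51.9, 37.6 and 26.2 CPM on day 7, then 49.6, 49.0 and 41.0 CPM on day 10, for WT, Per1-/- and Per2-/- in this order. This order of genotypes holds for all lists of values below.

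Compared with the other fibroblasts of their own library, members differed by small amounts in many genes. Among 6374 genes with a mean of at least 20 CPM in either group, 214 (3.36%) were higher and 812 (12.7%) lower in members in 9 of 9 libraries, and the median log2 ratio of all of them was -0.04. The number at least 2-fold higher in every library was 0 (0%), and the number at least 2-fold lower in every library was also 0 (0%). With the cells of the highest doublet scores left out, 3 genes were at least 2-fold lower in every library. Without the Per1-/- libraries of days 7 and 10, 253 of 6380 genes were higher and 1048 lower in all 7 libraries left, and 0 were 2-fold apart in all of them. The genes of the rule were left out of these counts.

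The genes with the highest ratios included a water channel, surface proteins and some transcription factors of limb and mesenchyme. As lists, such factors went both ways. Of 20 limb and body position regulators above 20 CPM, 4 were higher and 4 lower in 9 of 9 libraries. Of 25 mesenchyme transcription factors 3 were higher and 2 lower, where 3.36% and 12.7% of all genes were. Without the Per1-/- libraries of days 7 and 10, 3 of 19 and 4 of 25 were higher and 7 and 2 lower, where 3.97% and 16.4% of all genes were. Aqp1, a water channel, had a median log2 ratio of 1.30 over the libraries, with 27.1, 16.3 and 13.4 CPM on day 4, then 34.1, 29.5 and 10.7 on day 7, then 26.0, 68.1 and 16.6 on day 10 in members, against 5.65 to 11.01 CPM in other fibroblasts. Mme, a membrane peptidase found on several mesenchymal cells, had 141 to 314 CPM in members and 48.2 to 104 CPM in other fibroblasts (median log2 ratio 1.03). Both genes stood higher in members of every library, and for Mme the 2 ranges did not overlap. Pitx1, a transcription factor that gives the hindlimb its identity, had 23.4 to 59.4 CPM against 9.81 to 19.1 CPM (0.99), again without overlap. Foxc1 and Foxd1, forkhead transcription factors of mesenchyme, had median log2 ratios of 0.81 and 0.74. Pax9, a paired-box factor used in limb and skeletal patterning, had a ratio of 1.53 and was higher in 9 of 9 libraries, but its 5.91 to 27.6 CPM put it below the limit of 20 CPM, and it is named here after its values were seen. Against marker-bearing cells with Hoxd13 the median log2 ratio was 1.58 for Aqp1, 0.56 for Foxc1 and only 0.40 for Mme. Without the Per1-/- libraries of days 7 and 10 these were 0.91, 0.66 and 0.14, with Mme higher in 6 of 7 libraries.

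Ligand and binding proteins of insulin-like growth factor signalling were also among the named genes. Of the 16 FGF and IGF pathway genes above 20 CPM, 6 were higher and 1 lower in members in 9 of 9 libraries, where 3.36% and 12.7% of all genes were, with a median log2 ratio of 0.11 against -0.04 for all genes. Igfbp2, a secreted binding protein for these factors, had 490, 356 and 183 CPM on day 4, then 752, 802 and 384 on day 7, then 518, 835 and 643 on day 10, against 131 to 358 CPM in other fibroblasts (median log2 ratio 0.98). Igfbp5 had a ratio of 0.89 and Igf1, the ligand, 0.54, while Igfbp3 was lower in every library (-0.94). Against marker-bearing cells with Hoxd13 the median ratios were 1.57 for Igfbp2, 1.79 for Igfbp5, 1.77 for Igf1 and -0.16 for Igfbp3. Against fibroblasts with neither Hoxd13 nor 3 markers they were 0.78, 0.47, 0.15 and -1.24 in that order. The Igf1 ratio to those fibroblasts was -0.13 without the Per1-/- libraries of days 7 and 10. Igf1 lost its direction when at least 4 markers were required (-0.23), and so did Foxd1 (-0.19).

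Tac1, Tmeff2, C1qtnf3 and Lpl had the lowest ratios of members to other fibroblasts. Tac1, a neuropeptide precursor, had 6.34 to 43.6 CPM in members and 24.7 to 71.0 CPM in other fibroblasts (median log2 ratio -1.77). C1qtnf3, a secreted protein of the C1q family, had a ratio of -1.33 and Lpl, the lipase that releases fatty acids from lipoproteins, -1.31, while Tmeff2, a membrane protein, had -1.38. All 4 were lower in 9 of 9 libraries. Against marker-bearing cells with Hoxd13, members were higher in Lpl (1.42, 9 of 9 libraries), C1qtnf3 (1.32, 8 of 9) and Tac1 (0.82, 6 of 9), and Tmeff2 had a ratio of 0.08. Of 18 dermal fibroblast and dermal papilla genes above 20 CPM, 5 were lower and 3 higher in 9 of 9 libraries, where 12.7% and 3.36% of all genes were, with a median of -0.17, and the summed list was lower in every library. When the Per1-/- libraries of days 7 and 10 were left out, 6 of 17 were lower and 2 higher in all 7 remaining, and of the 16 FGF and IGF pathway genes 7 were higher and 1 lower, where 3.97% of all genes were higher and 16.4% lower.

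Pou3f2, which encodes the reprogramming factor Brn2, was lower in members than in other fibroblasts in 9 of 9 libraries. It stood at 83.0, 81.0 and 49.8 CPM on day 4, then 45.1, 47.4 and 93.3 on day 7, then 52.5, 61.5 and 30.2 on day 10 in members, against 64.7 to 238 CPM in other fibroblasts (median log2 ratio -1.29). Against marker-bearing cells with Hoxd13 the ratio was -0.08, with members higher in 3 of 9 libraries. Transcripts of the virus and of the own gene cannot be told apart in these tables. The 14 neuron markers summed to 126 to 288 CPM in members and 156 to 361 CPM in other fibroblasts.

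Of 8 lists of markers of other cell types, 1 was higher in members than in other fibroblasts of every library. The 12 macrophage markers summed to 14.9 to 90.9 CPM in members and 17.98 to 86.5 CPM in other fibroblasts. Skeletal muscle markers (12 genes, Ckm at 0) summed to 18.2 to 106 CPM against 41.3 to 118 CPM. Schwann and glia markers (9 genes) summed to 13.2 to 76.3 CPM against 19.5 to 134 CPM, mesothelium markers (7 genes) to 0.918 to 19.3 CPM against 2.99 to 40.6 CPM, and epidermis markers (6 genes, Krt14 at 0) to 1.70 to 5.78 CPM against 1.78 to 4.92 CPM. Cartilage, bone and tendon markers (11 genes) summed to 44.1 to 94.8 CPM against 44.9 to 138 CPM. The 10 endothelium and pericyte markers summed to 113 to 167 CPM in members and 104 to 136 CPM in other fibroblasts, higher in members of every library. The part of any of these cells in the ratios was not tested.

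Apart from Crabp1, no retinoic acid gene above 20 CPM differed one way from the other fibroblasts as a whole in all libraries. Of 6 listed genes for binding and uptake, 2 passed 20 CPM, and of 6 receptors 4 did. The median log2 ratios were -0.05 and 0.00, and none of these 6 genes was higher or lower in all 9 libraries, or in all 7 without the Per1-/- libraries of days 7 and 10. No synthesis gene passed 20 CPM, and the 7 of them summed to 43.7 to 67.8 CPM in members and 49.5 to 72.6 CPM in other fibroblasts. The 11 genes of urea and arginine handling had 5 above 20 CPM, with 1 higher in 9 of 9 libraries, 1 in all 7 without those libraries, and a median of 0.02.

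Hoxa13 in members stood between its levels in 2 other kinds of fibroblast. These were the 9668 marker-bearing fibroblasts that had Hoxd13 and the 30786 fibroblasts that had neither Hoxd13 nor 3 markers. Hoxa13 had 17.9, 11.2 and 23.4 CPM on day 4, then 22.8, 5.28 and 23.9 on day 7, then 31.6, 7.31 and 24.7 on day 10 in members. It was lower than in marker-bearing cells with Hoxd13 (28.7 to 67.8 CPM, median log2 ratio -1.42) and higher than in cells with neither (0.727 to 9.92 CPM, 2.43), each in 9 of 9 libraries. The 2 Per1-/- libraries of days 7 and 10 had the lowest Hoxa13 values in members.

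Some limb genes followed the same order. Of 19 limb and body position regulators above 20 CPM, 5 were higher and 8 lower in 9 of 9 libraries than in marker-bearing cells with Hoxd13, where 4.92% and 10.8% of all genes were. Of 21 compared with cells with neither, 6 were higher and 7 lower, where 8.29% and 18.4% of all genes were. Tbx4, a hindlimb transcription factor, had a median log2 ratio of -0.93 to marker-bearing cells with Hoxd13 and 2.32 to cells with neither. Lhx2, a LIM factor of the outer limb bud, had -1.61 and 2.18, Msx1, a homeobox factor of limb mesenchyme and a target of BMP signalling, had -1.11 and 1.74, and Hoxd12 had -2.12 and 1.25. All of these ratios held their sign in 9 of 9 libraries, but the 4 genes were chosen after their values were seen. Pitx1 differed from this order, with 0.06 and 1.91. It was higher than in the Hoxd13 cells in 5 of 9 libraries and at least 2-fold above the cells with neither in every library.

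Several other Hox genes and Meis1 went the other way. Of 8 Hox genes above 20 CPM, 3 were higher and 4 lower in 9 of 9 libraries than in marker-bearing cells with Hoxd13, and of 10 compared with cells with neither, 1 was higher and 7 lower. With the Per1-/- libraries of days 7 and 10 left out, 2 of 9 were higher and 6 lower in the first comparison, where 6.96% and 18.4% of all genes were, and 2 of 12 higher and 8 lower in the second, where 9.98% and 21.6% were. Of the limb and body position regulators in these 7 libraries, 6 of 18 were higher and 8 lower, then 7 of 21 higher and 8 lower. Hoxc10 had a median log2 ratio of 2.26 to marker-bearing cells with Hoxd13 and -0.34 to cells with neither, Hoxc8 1.66 and -1.31, Hoxc6 1.57 and -1.09, and Hoxb9 1.04 and -1.25. Meis1, a Hox cofactor of the inner limb, had 1.64 and -0.40. Hoxc8, Hoxc6 and Meis1 held both signs in 9 of 9 libraries, while Hoxc10 was lower than in cells with neither in 6 of 9. Foxd1 had the largest gap among these genes, at 2.80 to marker-bearing cells with Hoxd13, where it had 0 to 5.38 CPM, and -0.02 to cells with neither, where it had 7.70 to 31.7 CPM. Members had 39.7, 23.0 and 9.38 CPM of Foxd1 on day 4, then 28.8, 32.1 and 14.2 on day 7, then 13.4, 14.8 and 29.3 on day 10, above the Hoxd13 cells of every library.

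Past 2-fold in 9 of 9 libraries, members exceeded marker-bearing cells with Hoxd13 in Foxd1, Hoxc10, Plac8, Smoc2, Lgi2, Zic1, Igf1, Rtl3 and Prelp and were lower in Hoxd11, 10 of 6400 genes (0.156%). Against cells with neither, they exceeded them in Tbx4, Pitx1, Hopx, Mme and Mia and were lower in Ptgds, Tac1, Tmeff2 and Lingo2, 9 of 6419 genes (0.14%). Without the Per1-/- libraries of days 7 and 10 these counts were 17 higher and 2 lower, and 9 higher and 6 lower. Since the rule excluded Hoxd13, a lower level of genes used together with it in the first comparison follows from how cells were chosen.

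**Figure D3:**
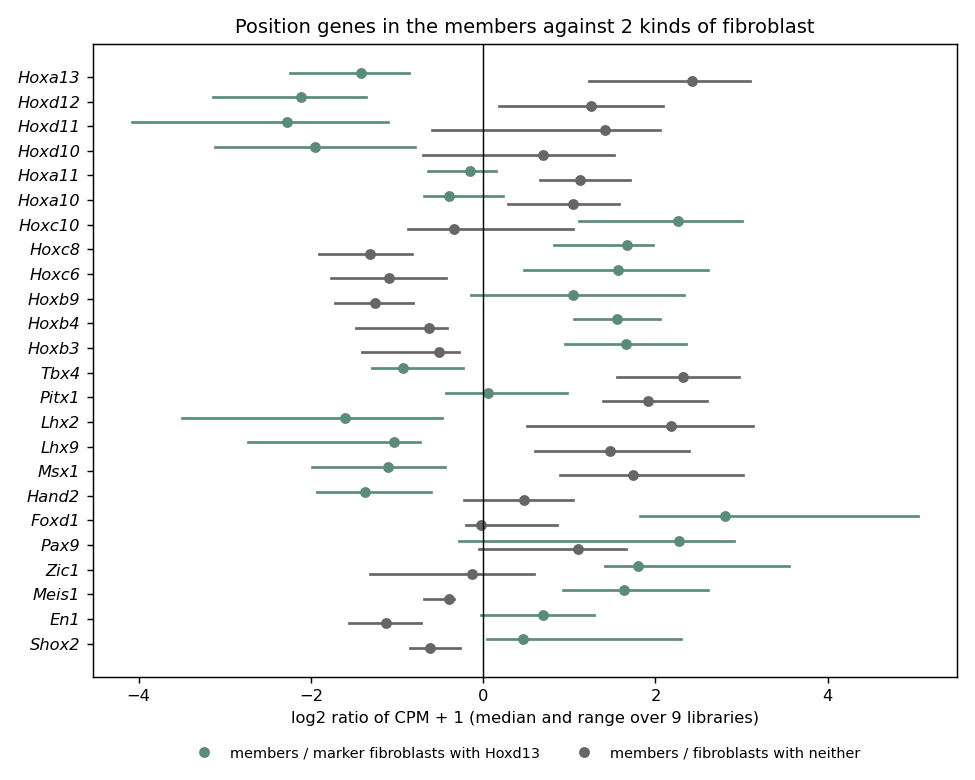
Median log2 ratio of CPM over the 9 libraries (x axis) for positional genes (y axis), members against marker-bearing fibroblasts with Hoxd13 and members against fibroblasts with neither. Hoxa13, Tbx4, Lhx2 and Msx1 lie left of 0 in the first and right of 0 in the second, and Hoxc8, Hoxc6 and Hoxb9 lie the other way.

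Members were also split by whether a UMI of other distal Hox genes was detected. Cells without such a UMI are not shown to lack these genes. At least 1 UMI of Hoxa13, Hoxd11 or Hoxd12 was present in 33.7%, 30.02% and 42.0% of members on day 4, then 39.7%, 14.1% and 52.5% on day 7, then 36.9%, 15.4% and 58.5% on day 10. The same measure was 83.7% to 96.8% in marker-bearing cells with Hoxd13 and 5.87% to 25.9% in cells with neither. In the macrophage gate it was 1.09% to 9.37%, which overlaps the cells with neither. In all 9 libraries the members lay between them, and the Per1-/- libraries of days 7 and 10 were lowest.

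Foxd1 was found mainly in the members without a UMI of these distal Hox genes. A Foxd1 UMI was present in 0.441% to 13.2% of members with a distal Hox UMI and in 10.2% to 45.0% of the rest, lower in the first in each of the 9 libraries. Both were found in 0.185% to 4.10% of members and neither in 27.6% to 69.1%. Median depth was 17059 to 30202 UMI in members with a distal Hox UMI and 10789.5 to 34949 in the rest, which were the deeper of the 2 in 7 of 9 libraries. The part of depth in the Foxd1 shares was not tested. In the macrophage gate, 0.412% to 2.22% of cells had a Foxd1 UMI. The same split ran the same way in other fibroblasts, so it is not particular to members. In cells with neither, Foxd1 shares were 2.56% to 18.1% with a distal Hox UMI and 6.61% to 17.7% without. They were lower with it in every library but Per2-/- on day 7 (18.1% against 10.7%). In marker-bearing cells with Hoxd13 the shares were 0% to 3.84% and 0% to 14.3%, both 0% in Per1-/- on day 7.

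Members with and without a distal Hox UMI also differed in other genes. Of 6423 genes, 327 (5.09%) were higher and 230 (3.58%) lower in members with a distal Hox UMI in 9 of 9 libraries, and 718 and 437 of 6432 were in the 7 libraries other than Per1-/- on days 7 and 10. Dkk2, a secreted Wnt modulator, had 104 to 596 CPM in members with a distal Hox UMI and 31.3 to 204 CPM in the rest (median log2 ratio 1.91), and Tgfb2, a ligand of the TGF-beta family, 153 to 347 against 61.1 to 143 CPM (1.31), without overlap. Bmp2 (2.51), Msx1 (2.37), Hand2 (2.10), a factor of the posterior limb bud, and the BMP inhibitor Grem1 (1.63) stood higher with it. Tfap2b, an AP-2 factor, had the highest ratio, 2.93. Cemip, an enzyme of hyaluronan breakdown, was lowest (-3.07), followed by Foxd1 (-2.70), Igfbp2 (-1.80), Plac8 (-1.79) and Cyp1b1, an oxidase that acts on steroids and retinoids (-1.72). Dlk1 (-1.21), Igf1 (-1.15), Igfbp5 (-1.13) and Meis1 (-1.27) were also lower in 9 of 9 libraries. Pitx1 had a ratio of 0.14, higher in 8 of 9 libraries. These genes were chosen after their values were seen, and genes that go with Hox UMI were favoured by the split itself.

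**Figure D4:**
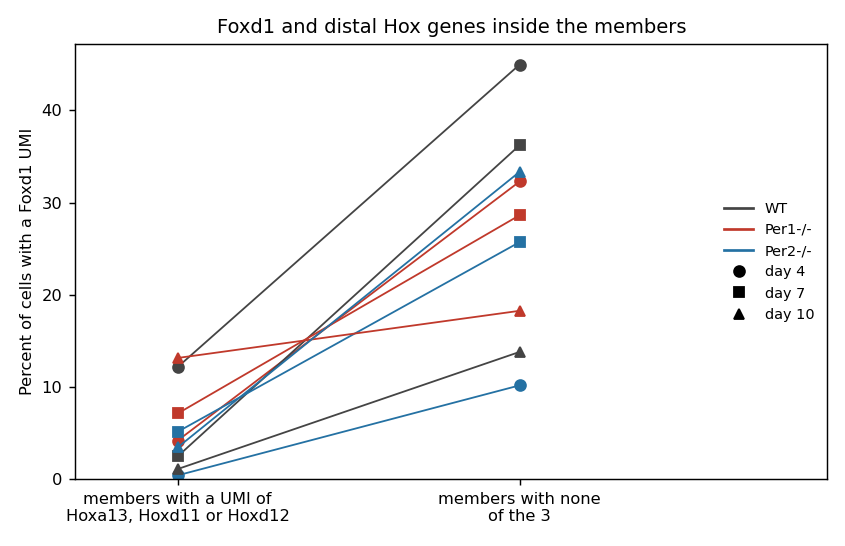
Percent of members with a Foxd1 UMI (y axis) in members with and without a UMI of Hoxa13, Hoxd11 or Hoxd12, as a pair of points joined by a line for each of the 9 libraries. All 9 lines run higher in the members without a UMI of these genes, from 10.2% to 45.0% there and from 0.441% to 13.2% in the others.

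Day and genotype were tested on the UMI of members summed per library, with 9 sums in 1 edgeR quasi-likelihood fit and additive terms for day and genotype. The genes of the rule stayed in the fit, but their values follow from the choice of cells. Values below are CPM normalised by TMM. Per1 in members was 9.05, 10.1 and 10.9 CPM in the Per1-/- libraries of days 4, 7 and 10 and 5.03 to 8.99 CPM in the other 6, and Per2 was 5.74, 4.48 and 6.16 CPM in the Per2-/- libraries and 2.04 to 3.57 CPM in the others, both before normalisation. The 3′ reads of the targeted genes were thus not lower in the libraries labelled as their knockouts. Whether such reads lie outside the deleted part was not tested, so they do not check the labels.

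Between days 4 and 7, 9 of 32 cell cycle genes fell in members, and Dcn, Fmod and Col15a1 were the genes of the proteoglycan and collagen lists that rose. Of 13580 genes, 92 (0.677%) passed an adjusted p of 0.05, with 45 up and 47 down. DESeq2 called 314. None of the 32 cell cycle genes rose, and they had a median log2 fold change of -1.30 against 0.01 over all genes. In the other fibroblasts, where 244 of 17643 genes passed, 15 of the 32 fell, with a median of -0.91. All 92 had the same sign there, and 46 were called there too, which is 50% of the calls in members and 18.9% of the 244 calls in other fibroblasts. The test of the difference between members and other fibroblasts called 0 of 17018 genes (0%), with 1047 genes at an unadjusted p under 0.05 in edgeR and 9 calls in DESeq2. It called 74 without the Per1-/- libraries of days 7 and 10 and 0 to 28 with 1 library left out.

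Top2a, the DNA topoisomerase of dividing cells, stood at 50.4, 87.3 and 134 CPM on day 4, then 14.6, 28.9 and 28.1 on day 7, then 7.04, 16.9 and 26.7 on day 10. The libraries of day 4 did not overlap those of day 7, and the log2 fold change was -1.87 ± 0.16 (SE, adjusted p = 0.0157). Ube2c, a ubiquitin-conjugating enzyme of mitosis, fell by 2.18 ± 0.21 on the log2 scale (adjusted p = 0.0157), the proliferation marker Mki67 fell by 1.36 ± 0.22 (adjusted p = 0.0362) and Cdk1, the mitotic kinase, fell by 1.28 ± 0.19 (adjusted p = 0.0302). Top2a stayed called without each library in turn, but not with the cells of the highest doublet scores left out, nor did Mki67 and Cdk1. Ube2c kept its call there and lost it without Per1-/- or Per2-/- on day 7.

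Other genes that fell included Meox1, Wnt4, Fdps and Hmga2. Meox1, a homeobox factor of somites, stood at 40.4, 46.5 and 24.6 CPM on day 4, then 16.4, 16.8 and 16.4 on day 7, then 9.76, 13.2 and 12.1 on day 10 (log2 fold change -1.12 ± 0.18, adjusted p = 0.0362). Wnt4, a Wnt ligand, stood at 21.9, 10.6 and 10.2 CPM on day 4 and 2.67 to 3.83 CPM on day 7 (-2.04 ± 0.27, adjusted p = 0.0221). Fdps, an enzyme of sterol synthesis, fell by 1.13 ± 0.17 (adjusted p = 0.0302), and Hmga2, a chromatin protein of growing embryonic cells, fell by 0.88 ± 0.14 (adjusted p = 0.0362). Fdps was the 1 of 19 cholesterol synthesis genes that fell, beside 4 of 19 in other fibroblasts. Of all genes, 92 of 13580 passed in members and 244 of 17643 in other fibroblasts.

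The genes that rose between days 4 and 7 included Dcn, Pi15 and Itgbl1. Decorin (Dcn), a proteoglycan that binds collagen fibrils, stood at 613, 748 and 423 CPM on day 4, then 1155, 1413 and 1497 on day 7, then 1340, 1497 and 1725 on day 10 (log2 fold change 1.21 ± 0.20, adjusted p = 0.0362). Pi15, a secreted peptidase inhibitor, stood at 17.2, 24.3 and 12.4, then 60.5, 82.2 and 55.0, then 133, 87.5 and 96.4 CPM (1.89 ± 0.21, adjusted p = 0.0165). Itgbl1, a secreted protein related to integrins, stood at 12.3, 11.2 and 7.51, then 36.9, 70.3 and 24.7, then 37.2, 40.6 and 29.9 CPM (2.03 ± 0.22, adjusted p = 0.0165). In all 3 genes the libraries of day 7 lay above those of day 4.

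Fmod, another collagen-binding proteoglycan, rose by 1.31 ± 0.15, Clec3b (tetranectin) by 2.49 ± 0.38 and the surface protein Cd34 by 1.12 ± 0.13 (adjusted p = 0.0165, 0.0352 and 0.0165). Of 28 listed elastic fibre and proteoglycan genes, 27 were tested and 2 rose (Dcn and Fmod). Of 23 dermal genes tested 3 rose (Dlk1, Dcn and Cd34), and of 29 collagens tested 1 rose (Col15a1). No Hox gene of 32 tested and no limb or body position regulator of 44 tested passed, in a comparison where 0.677% of all genes did.

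The count of day 7 calls depended on single libraries. It was 30, 50 and 29 without WT, Per1-/- or Per2-/- on day 4, 25, 2 and 1 without them on day 7 and 103, 57 and 57 without them on day 10, and 32 with the highest doublet scores left out. Of the 26 named genes 11 stayed called in that last fit, where Dcn, Meox1, Wnt4, Hmga2, Dlk1 and Col15a1 also lost their call. Of the 26, 1 (Top2a) stayed called in every fit that left out 1 library, and Dcn did in 2 of these 9 fits. All 26 held their sign in every alternative. Without the Per1-/- libraries of days 7 and 10 together the count was 66, and Dcn, Fdps, Meox1, Hmga2, Dlk1 and Col15a1 were not among the calls.

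**Figure D5:**
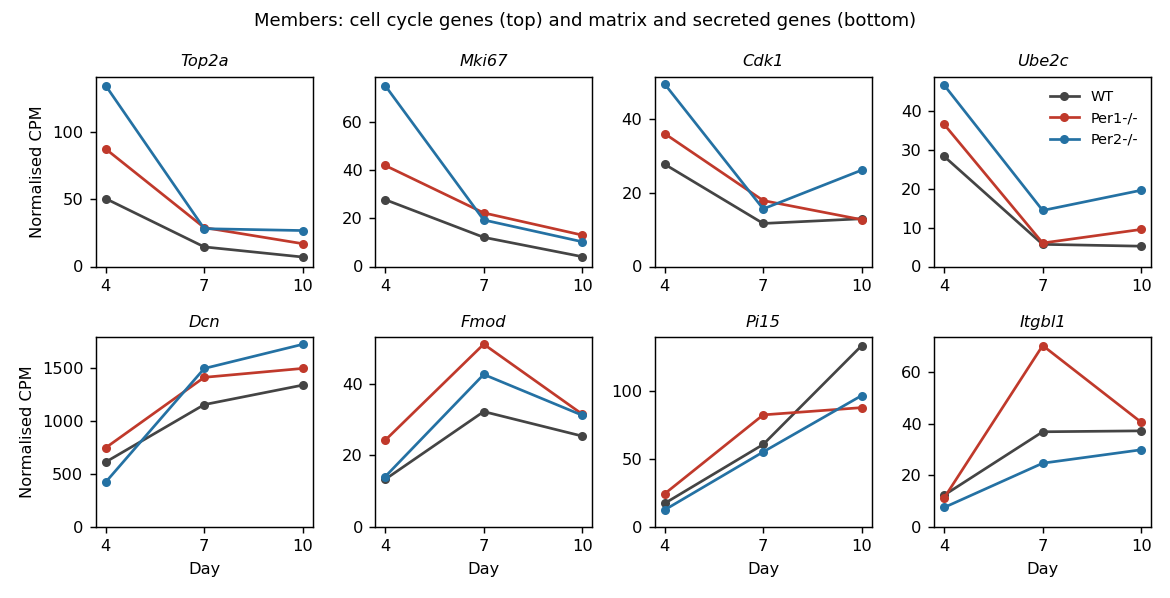
Normalised CPM on a linear axis from 0 (y axis) by day (x axis) of genes called in members between days 4 and 7, 1 point per library and a colour per genotype. Top2a falls from 50.4-134 CPM on day 4 to 14.6-28.9 CPM on day 7, and Pi15 rises from 12.4-24.3 to 55.0-82.2 CPM.

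Between days 7 and 10, 131 of 13580 genes (0.965%) passed, 113 up and 18 down. Most of them were also called in each of the 2 other pools of cells tested: 121 were called in other fibroblasts (92.4% of the calls in members and 48.4% of 250 there) and 117 in cells outside the fibroblast gate (89.3%, and 34.4% of 340 there). Rnasek had 0.464 to 3.02 CPM in the 6 libraries of days 4 and 7 and 134 to 165 CPM in those of day 10, and Ptp4a1 had 76.9 to 101 CPM and then 1.24 to 1.39 CPM. The count tables of day 10 were made with another program version and gene table than those of days 4 and 7, so day and table cannot be told apart in this comparison. Igf2, with 50.1 to 99.7 CPM before and 653 to 1447 CPM on day 10, and Hoxd4 are among these genes. Calls numbered 84 without WT and 82 without Per1-/- on day 7, and 80 without Per1-/- and 85 without Per2-/- on day 10, and 88 without the Per1-/- libraries of both days.

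Diaph3, Fmo1, Hells, Hsd11b2, Nme2, Ntrk2, Osgin2, Prr16, Sfrp2 and Srpx were the 10 genes called in members and not in other fibroblasts. Sfrp2, a secreted Wnt antagonist, stood at 141, 269 and 272 CPM on day 4, then 167, 387 and 384 on day 7, then 376, 597 and 721 on day 10 (log2 fold change from day 7 to day 10 of 0.92 ± 0.12, adjusted p = 0.00663). Each genotype was higher on day 10 than on day 7, though the days overlapped. Its change in other fibroblasts was 0.55 ± 0.23 (adjusted p = 0.434). Its call in members was lost without WT and without Per2-/- on day 7, each left out alone. The test of the difference called 0 genes between days 7 and 10 (0%), with 651 at an unadjusted p under 0.05 in edgeR and 5 calls in DESeq2 (29 calls without the Per1-/- libraries of days 7 and 10, and 0 to 17 with 1 library left out), so Sfrp2 is not shown to differ between the 2 kinds of fibroblast.

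Genotype contrasts inside members gave almost no calls in edgeR. Per1-/- against WT gave 0 of 13580 genes (0%), with 724 at an unadjusted p under 0.05, and Per2-/- against WT gave 0 (0%), with 1056. When nothing differs, a fraction of 0.05 of genes passes that unadjusted threshold. DESeq2 called 45 and 69. Per1-/- against Per2-/- gave 1 (0.00736%), with 1433 at an unadjusted p under 0.05 and 154 calls in DESeq2. That gene was Pappa, a protease that cleaves IGF-binding proteins, with 77.1, 129 and 110 CPM on days 4, 7 and 10 in Per1-/-, 28.8, 58.0 and 49.9 in Per2-/- and 56.6, 82.5 and 65.8 in WT. Per1-/- was highest and Per2-/- lowest on each day, and the log2 fold change was 1.22 ± 0.12 (adjusted p = 0.0353).

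Pappa was called in 2 of the 9 fits that left out 1 library, those without WT or without Per1-/- on day 4, and not without the Per1-/- libraries of days 7 and 10. It also lost its call with doublets left out, with the Y-linked share as a covariate and with no day term. In other fibroblasts it differed by 1.32 ± 0.17 (adjusted p = 0.293, edgeR). The counts also hung on single libraries. Without Per1-/- on day 4, there were 70 calls for Per1-/- against WT, 11 with Per2-/- in its place and 263 for Per1-/- against Per2-/-, and without WT on day 4 the last was 16. Without the 2 Per1-/- libraries of later days they were 1 and 18 against WT and 1 for Per1-/- against Per2-/-.

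The test of whether responses to genotype differed between members and other fibroblasts gave 1 to 5 calls per contrast in edgeR with all libraries. The test over 18 sums, with library as a block, called Wfdc18 between Per1-/- and WT (0.00588%) and Gfra1 between Per2-/- and WT (0.00588%). Between Per1-/- and Per2-/- it called Gfra1, Clec3b, Sox5, Car9 and Aldh3a1 (0.0294%). These counts changed with the libraries used: without the Per1-/- libraries of days 7 and 10 they were 90, 244 and 32, and with 1 library left out they ranged from 0 to 129, 0 to 85 and 0 to 463, in the order of the contrasts above. Gfra1, the receptor of the growth factor GDNF, stood at 27.2, 24.3 and 48.2 CPM on day 4, then 30.3, 20.3 and 32.2 on day 7, then 25.8, 28.8 and 36.8 on day 10 in members. In other fibroblasts it stood at 50.4, 41.5 and 51.9, then 57.5, 38.1 and 39.9, then 43.4, 43.2 and 38.3 CPM. Members were lower in every library, and on each day the ratio was nearest to 1 in Per2-/-. The difference of the log2 fold changes was 0.70 ± 0.07 when Per2-/- was compared with WT (adjusted p = 0.0221, edgeR). It was -0.61 ± 0.07 when Per1-/- was compared with Per2-/- (adjusted p = 0.0434). The call for Per2-/- against WT held without the Per1-/- libraries of days 7 and 10 together. In that fit Per1-/- rests on day 4 alone, so its contrast with Per2-/- is not read. Both Gfra1 calls were lost without WT on day 4, without any 1 library of day 7 and without Per2-/- on day 10. The call for Per1-/- against Per2-/- was also lost without Per1-/- on day 10.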

How the data were processed

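The authors deposited UMI counts per gene and barcode for 9 libraries, as whole numbers and not normalised. The submitters' processing notes name Cell Ranger 7.1 and the mm10 genome, while the file headers give version 4.0.0 for days 4 and 7 and 6.0.0 for day 10. The gene tables list 31053 and 32285 genes. The 30406 identifiers in both were used, 597 of them with different symbols. Every deposited matrix belonged to a sample of the series. Doublets were kept, since the rule keeps them. As an alternative, the cells ranked highest by Scrublet (scanpy 1.11.5) were removed, at 0.8% for each 1000 barcodes in a library.

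Counts of members, and of other fibroblasts, were summed per library. Tests used edgeR 4.0.16 in R 4.3.3 (TMM, filterByExpr, two-sided quasi-likelihood F-test, day and genotype as additive factors, Benjamini-Hochberg adjustment over all genes tested, threshold 0.05), and the difference between members and other fibroblasts used 18 sums with library as a block. Standard errors are the log2 fold change over the root of F. The scripts were tested on simulated data. Descriptions used CPM of the sums with a pseudocount of 1 CPM. Named genes were those of the rule, the 25 highest and 15 lowest median ratios with 1 sign in 9 of 9 libraries and a mean of at least 20 CPM, the 10 largest called changes each way above that mean, and called members of 40 gene lists. The list of reprogramming factor genes is not reported here. Members, markers, lists and tests were chosen with earlier results of these data known. Alternatives were DESeq2 1.42.0, no filter on low counts, doublets left out, other marker numbers, thinning to 10000 UMI, the Y-linked share as a covariate, no day term, each library left out, and, chosen after seeing the data, both Per1-/- libraries of days 7 and 10 left out and other comparison groups. Promoters are from RefSeq on GRCm38.p6.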

Additional observations from a re-analysis of the deposited data

Results flagged for a closer look

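The 7 results here were flagged because the response to genotype differed between members and other fibroblasts in the test of that difference (edgeR, adjusted p under 0.05, n = 9 libraries with 2 sums each). For Per1-/- against WT, the log2 fold change of Wfdc18 was lower in members by -3.15 ± 0.36 (SE). For Per2-/- against WT, that of Gfra1 was higher in members by 0.70 ± 0.07. For Per1-/- against Per2-/-, the differences were 2.03 ± 0.27 for Car9, 1.63 ± 0.22 for Sox5, -0.58 ± 0.07 for Clec3b, 3.07 ± 0.41 for Aldh3a1 and -0.61 ± 0.07 for Gfra1. Of 17018 genes, the same test had 653, 1007 and 1103 at an unadjusted p under 0.05 for the 3 contrasts. A fraction of 0.05 of genes passes that threshold when nothing differs. Adjusted p was 0.0453 for Wfdc18, 0.0221 for the first Gfra1 result and 0.0434 for the rest. Wfdc18, an antiprotease domain protein, was low throughout, at 0.0842 to 3.83 CPM in members and 0.381 to 15.3 CPM in other fibroblasts, and Aldh3a1 had 0.174 to 9.02 and 0.213 to 2.57 CPM. Sox5, a transcription factor of cartilage, had 22.5 and 29.0 CPM in members of Per1-/- on days 7 and 10, the highest of its 9 values. In other fibroblasts Sox5 had 11.7 and 8.88 CPM in those libraries and 3.05 to 11.1 CPM elsewhere. In the Per1-/- contrasts, genotype cannot be told apart from the make-up of the Per1-/- libraries of days 7 and 10. All 7 kept their sign in every alternative. All 7 were lost without WT on day 4, WT on day 7 or Per1-/- on day 7, each left out alone. Without the Per1-/- libraries of days 7 and 10, the Gfra1 call for Per2-/- against WT held. The Per1-/- contrasts then rest on day 4 alone and are not read.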

How the results depend on the processing

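Calls between days 4 and 7 in members, 92 as reported, became 314 with DESeq2, 385 without the filter on low counts, 32 with doublets left out and 194 with the Y-linked share as a covariate, and 1 to 103 with 1 library left out. Calls between days 7 and 10 stayed within 1.5 times of 131 in every alternative but 4 of these left-out fits, which gave 80 to 131 in all. Per1-/- against Per2-/- (1 call) became 154 with DESeq2, 204 without the filter, 0 with doublets left out, 2 with the Y-linked share (Pappa not among them), 0 with no day term and 0 to 263 with 1 library left out. Per1-/- against WT (0 calls) became 45, 39 and 4 with DESeq2, without the filter and with the Y-linked share, 1 without the Per1-/- libraries of days 7 and 10, and 0 to 70 with 1 library left out. Per2-/- against WT (0 calls) became 69, 73, 52 and 18 under those settings and 0 to 11.

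For the difference between members and other fibroblasts, DESeq2, no filter and leaving out the Per1-/- libraries of days 7 and 10 gave 25, 47 and 32 calls for Per1-/- against Per2-/-, 5, 10 and 90 for Per1-/- against WT, 21, 20 and 244 for Per2-/- against WT, 5, 6 and 29 for day 10 against day 7 and 9, 12 and 74 for day 7 against day 4. With 1 library left out the ranges were 0 to 463, 0 to 129, 0 to 85, 0 to 17 and 0 to 28. The causes were not tested.

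The mean share of 6.76% became 1.16% with at least 4 markers, 25.1% with at least 2 and 3.85% with at least 3 of the 4 markers other than Cxcl5. The genotype differences, for which the test could not give an adjusted p under 0.05, turned sign as follows. The WT difference became -2.17 percentage points with at least 2 markers, -0.309 without Cxcl5 and -0.147 to 1.21 with 1 library left out. The Per1-/- difference became -2.43 with thinning, -0.310 with at least 4 markers, -0.0573 without Cxcl5, -0.407 without the Per1-/- libraries of days 7 and 10 and -0.188 to 1.31 with 1 library left out. The Per2-/- difference became 0.164 with thinning and 0.366 without Cxcl5.

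Against other fibroblasts, 0 genes lay at least 2-fold apart in 9 of 9 libraries, and 3 did with doublets left out. With other comparison groups there were 48 (cells with no marker and no Hoxd13), 10 (marker-bearing cells with Hoxd13) and 9 (cells with neither). Foxd1 turned to -0.19 and Igf1 to -0.23 with at least 4 markers, and Foxd1 turned to -0.55 and Hoxd11 to 1.58 against cells with no marker and no Hoxd13. Of the remaining values of named genes in the description, 159 moved by less than the spread between libraries and 37 by more.

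No paired analysis was possible because each genotype and day has 1 library and the labels give no replicate numbers, while day and library served as terms or blocks in the fits. The fit with at least 4 markers could not be made: 5 libraries had 19 to 41 such cells, under the minimum of 50, and the 4 left have no residual degrees of freedom. Depth limits every statement on Hoxd13, since a member is a cell in which no UMI of it was seen.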
